A study of Danio rerio with 12 samples.

Results

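The genes examined were the myogenic regulatory factors of the zebrafish, *myf5*, *myod1*, *myog* and *myf6*, 4 of the 20635 genes named on the Affymetrix Zebrafish Gene 1.1 ST array. They were chosen by symbol, as every probe set whose only gene symbol was one of these. This gave 5 of the 75212 probe sets, 1 for each gene and a second one for *myf6*, and no probe set with several symbols held any of them. All 5 had values on all 12 arrays and were tested, and no other probe set carried the same 12 values as one of them.

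RNA came from microdissected pieces of embryos at the 3- to 4-somite stage, in 4 groups of 3 arrays. Region 1 runs from the first to the last somite with the tissue beside and below, and Region 2 holds the tailbud and presomitic mesoderm (PSM) with the left-right organiser. Each region was taken from Tg(hsp70:HA-*dmrt2a*) embryos, which carry an HA-tagged *dmrt2a* under the heat-shock promoter hsp70, and from wildtype control embryos. *dmrt2a* encodes a DM-domain transcription factor of the somites and the left-right organiser. Transgenic and control embryos alike were heat-shocked at bud stage at 39 °C for 30 min, raised at 28 °C and collected from 2 h to 2.5 h after the heat-shock, so embryos without heat-shock were not among the groups. The promoter is not tissue-specific, the transgenic line adds *dmrt2a* on top of the embryo's own gene, and 100 pieces were pooled for each array, so variation between embryos was not measured. The methods call the 3 replicates of a condition biological. In such pools, fewer muscle precursors and less RNA per precursor cannot be told apart.

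The myogenic regulatory factors are basic helix-loop-helix proteins that pair with E-proteins on E-boxes and turn on muscle genes. *myf5* and *myod1* act first and commit mesoderm cells to the muscle fate, *myog* follows as the precursors leave the cell cycle and differentiate, and *myf6* (also called *mrf4*) acts mainly in differentiating and mature fibres. In the zebrafish, the adaxial cells beside the notochord, which become slow muscle, express *myf5* and *myod1* while still in the PSM, before they are built into somites.

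The values are log2 signals as deposited, so a difference of 1 is a fold of 2, and differences are transgenic minus control, fitted with limma for each region apart. A probe set is said to have risen or fallen only at a p under 0.05 after Benjamini-Hochberg adjustment over all 75212 probe sets. The arrays of each group correlated with each other at 0.988 to 0.992. The median signal of an array was 3.47 to 3.49 in Region 1 and 3.29 to 3.32 in Region 2, which is why the regional differences of the factors are also given under other scalings.

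The labels of the regions were checked against markers. In control pieces 8 of 11 somite markers were higher and 2 lower in Region 1 than in Region 2. Of 14 PSM and tailbud markers 12 were lower in Region 1 and none higher. For all probe sets, the shares of this comparison were 19% higher and 8.68% lower on the deposited values. The labels of the genotypes were checked with *dmrt2a* itself, for which transgene and native transcript were not separated. Its signal in Region 2 was 8.76 ± 0.07 in transgenic and 7.37 ± 0.04 in control pieces (SD, n = 3 each), a rise of 1.40 (SE 0.07, limma adjusted p = 0.00352). In Region 1 it was 8.74 ± 0.01 in transgenic and 8.39 ± 0.06 in control pieces (SD, n = 3 each), and the difference of 0.35 was not called (adjusted p = 0.0991). The 2 regions of the transgenic embryos were thus nearly level in *dmrt2a*, while in control embryos Region 1 was above Region 2.

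In Region 2, transgenic pieces had less *myf5* and less *myod1* than control pieces, while *myog* and *myf6* did not pass the test. In Region 1 none of the 4 genes passed it. Of all probe sets, 0.4% fell and 0.0678% rose in Region 2, and 0.344% fell and 0.162% rose in Region 1. Between regions, *myod1* and *myog* were higher in Region 1 and *myf5* was higher in Region 2, whichever the genotype.

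**Figure D1:**
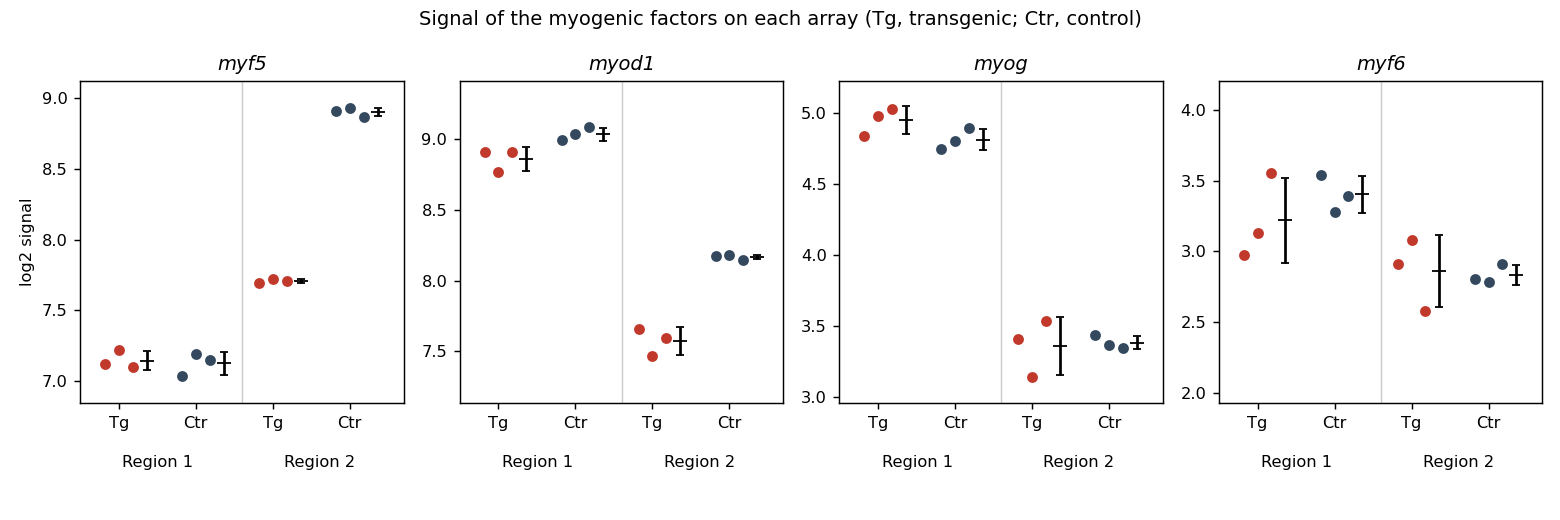
Log2 signal (y axis) of *myf5*, *myod1*, *myog* and *myf6* (higher probe set) on each array, for transgenic (Tg, red) and control (Ctr, dark) pieces of each region. Points are the 3 arrays of a group, the bar beside them is their mean ± SD, and each panel spans the same number of log2 units around its own level. The transgenic points of *myf5* in Region 2 lie near 7.7, below the control points near 8.9.

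*myf5*, one of the earliest muscle determination genes, gave 7.69, 7.72 and 7.71 on the transgenic arrays of Region 2 and 8.90, 8.93 and 8.87 on the control arrays. The groups were far apart and each was tight, with a SD of 0.01 in transgenic and 0.03 in control pieces (n = 3 each). *myf5* fell by 1.19 (SE 0.06, 95% CI -1.34 to -1.04, limma adjusted p = 0.00375), so that transgenic pieces kept 43.8% of the control signal, a fold of 2.28. It was the only myogenic factor past a fold of 2, which 0.11% of all probe sets passed downwards in Region 2. Without any 1 of the 6 arrays the adjusted p stayed under 0.05, between 0.0295 and 0.0437.

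In Region 1 the signals of *myf5* were 7.12, 7.22 and 7.10 in transgenic pieces and 7.04, 7.19 and 7.15 in control pieces. These arrays were intermixed. The difference was 0.02 (95% CI -0.16 to 0.20, limma adjusted p = 0.947), an interval that leaves out a change as large as that of Region 2. The effect of the transgene on *myf5* was lower in Region 2 than in Region 1 by 1.21 (95% CI -1.41 to -1.02, adjusted p = 4.4e-04), and it was the only one of the 4 genes for which this difference was called, against 0.128% of all probe sets called in this direction.

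*myod1*, which together with *myf5* commits cells to the muscle lineage, gave 7.66, 7.46 and 7.59 on the transgenic arrays of Region 2 and 8.17, 8.18 and 8.15 on the control arrays. Every transgenic array was below every control array. *myod1* fell by 0.59 (SE 0.08, 95% CI -0.78 to -0.41, limma adjusted p = 0.0422), with 66.3% of the control signal in transgenic pieces, a fold of 1.51. This call lay close to the threshold and was lost whichever 1 of the 6 arrays was left out (adjusted p = 0.112 to 0.168), while the difference itself stayed between -0.64 and -0.54. Such losses were common, as 352 probe sets were called in Region 2 with all 6 arrays and 16 to 78 without 1. In Region 1 the counts were 381 and 30 to 46. The later fits without 1 array can be read against these counts.

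The Region 1 signals of *myod1* were 8.90, 8.76 and 8.90 in transgenic pieces and 8.99, 9.03 and 9.08 in control pieces. The transgenic arrays were again all below the control arrays, as were those of 9.56% of all probe sets in Region 1 and 9.3% in Region 2. The 95% CI of the difference of -0.18 ran from -0.35 to -0.0028 and so left out 0, but the gene was not called (limma adjusted p = 0.392). The effect on *myod1* in Region 2 minus that in Region 1 was -0.42 (95% CI -0.63 to -0.20), which was not called over all probe sets either (limma adjusted p = 0.165).

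*myog*, encoding myogenin, the factor of terminal differentiation, gave 4.84, 4.98 and 5.03 on the transgenic arrays of Region 1 and 4.75, 4.80 and 4.89 on the control arrays. In Region 2 its signals were 3.41, 3.14 and 3.53 in transgenic pieces and 3.43, 3.37 and 3.34 in control pieces. The arrays of both genotypes overlapped in each region. The differences were 0.13 in Region 1 (95% CI -0.06 to 0.33, limma adjusted p = 0.562) and -0.02 in Region 2 (95% CI -0.29 to 0.24, adjusted p = 0.969). The interval of Region 2 does not reach the fall of *myod1* there. The Region 2 arrays however had 46.6% to 54.0% of all probe sets below *myog*, so its signal there was near the middle of the array, whereas 66.9% to 70.0% lay below it in Region 1.

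*myf6*, the factor of later fibres, was dim with both of its probe sets. On the higher one the Region 1 signals were 2.98, 3.13 and 3.55 in transgenic pieces and 3.54, 3.28 and 3.39 in control pieces. On the Region 2 arrays they were 2.91, 3.08 and 2.58 in transgenic pieces and 2.81, 2.78 and 2.91 in control pieces. The transgenic arrays were spread on both sides of the control arrays in each region, and the differences were -0.18 in Region 1 (95% CI -0.57 to 0.20, limma adjusted p = 0.698) and 0.03 in Region 2 (95% CI -0.30 to 0.35, adjusted p = 0.973). The second probe set lay between 2.51 and 2.79 in transgenic and 2.52 and 2.69 in control pieces of Region 1, and between 2.58 and 2.84 in transgenic and 2.67 and 2.78 in control pieces of Region 2. Its differences were 0.05 and -0.05 (limma adjusted p = 0.874 in Region 1 and 0.913 in Region 2). Of all probe sets, 34.8% to 51.2% lay below the first on an array and 30.2% to 40.7% below the second, and how much of either signal stood above background was not measured.

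**Figure D2:**
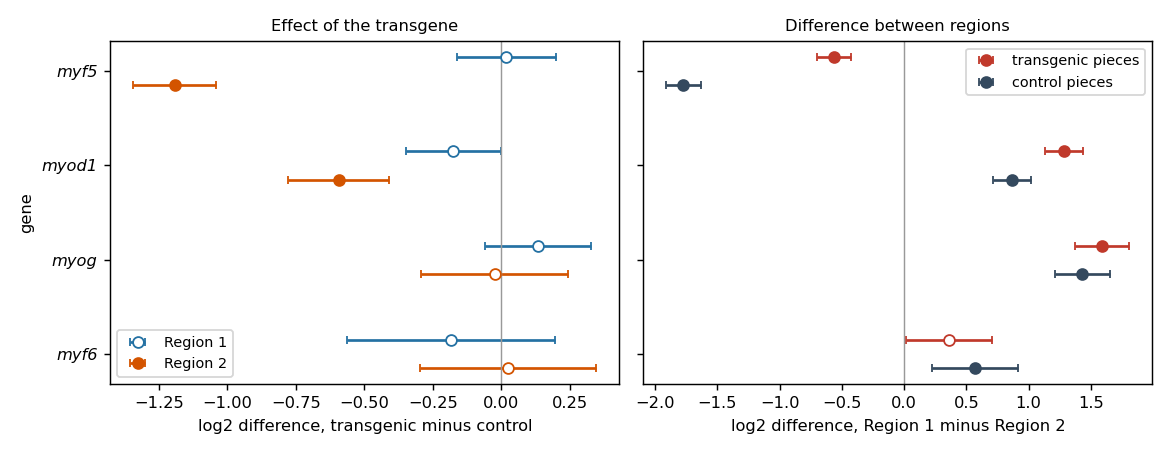
Log2 differences (x axis) of the 4 genes with their 95% confidence intervals from limma: transgenic minus control in each region (left) and Region 1 minus Region 2 in each genotype (right). Filled points passed an adjusted p under 0.05 and open points did not. On the left, *myf5* at -1.19 and *myod1* at -0.59 in Region 2 are the filled points.

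The genes were also compared with each other on the same arrays, which takes out what an array's genes share. In Region 2 the fall of *myf5* exceeded that of *myod1* by 0.60, the difference between the genes being 0.14 ± 0.11 in transgenic and 0.73 ± 0.01 in control pieces (SD, n = 3 each). The effect on *myf5* was lower than that on *myog* by 1.17, and the effect on *myod1* was lower than that on *myog* by 0.57. The signal of *myog* in Region 2 was near the middle of the array, as given above. Whether it stood high enough there to show a fall of such size was not measured. In each of these 3 cases the transgenic arrays were separate from the control arrays, with an exact two-sided permutation p of 0.1, the smallest that 3 arrays against 3 can give. In Region 1 the corresponding differences of effect were 0.19 for *myf5* less *myod1* (exact permutation p = 0.1), -0.12 for *myf5* less *myog* (p = 0.2) and -0.31 for *myod1* less *myog* (p = 0.1). With 6 such comparisons and this smallest p, none could pass 0.05.

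Where each gene was most abundant differed between the early factors. Region 1 had more *myod1* than Region 2, by 1.29 in transgenic pieces (limma adjusted p = 2.6e-07) and by 0.87 in control pieces (adjusted p = 6.4e-06). *myf5* went the other way, with Region 1 minus Region 2 at -0.56 in transgenic pieces (limma adjusted p = 7.7e-05) and at -1.77 in control pieces (adjusted p = 9.2e-09). The direction of each regional difference was the same in both genotypes. A difference in its size between the genotypes is the difference of effects given above, which was called for *myf5* and not for *myod1*. Of all probe sets, 26.6% differed between regions in transgenic and 27.7% in control pieces, so a call here is common.

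*myog* was higher in Region 1 by 1.59 in transgenic pieces (95% CI 1.37 to 1.81, limma adjusted p = 8.2e-07) and by 1.43 in control pieces (95% CI 1.21 to 1.65, adjusted p = 2.0e-06). For *myf6* the higher probe set differed by 0.36 in transgenic pieces, which was not called (limma adjusted p = 0.117), and was higher in Region 1 by 0.57 in control pieces (adjusted p = 0.0202). The second probe set of *myf6* gave the opposite sign, -0.04 in transgenic pieces (limma adjusted p = 0.804) and -0.14 in control pieces (adjusted p = 0.317), and the call of the first was lost without control replicate 1 or 3 of Region 1 or control replicate 1 or 2 of Region 2 (adjusted p up to 0.0689), so the regional difference of *myf6* rests on 1 of its 2 probe sets. Centring of each array on its median kept the direction of *myf5*, *myod1* and *myog*, with differences of -0.73, 1.12 and 1.42 in transgenic pieces and -1.95, 0.68 and 1.25 in control pieces.

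The 4 groups could be ranked within each gene. For *myf5* the means were 7.71 ± 0.01 in transgenic and 8.90 ± 0.03 in control pieces of Region 2, and 7.15 ± 0.06 in transgenic and 7.13 ± 0.08 in control pieces of Region 1 (SD, n = 3 each). Region 2 control pieces stood highest, Region 2 transgenic pieces came next, and the groups of Region 1 overlapped at the bottom. *myod1* had means of 8.86 ± 0.08 in transgenic and 9.03 ± 0.05 in control pieces of Region 1, and 7.57 ± 0.10 in transgenic and 8.17 ± 0.02 in control pieces of Region 2 (SD, n = 3 each). Its order was Region 1 control, Region 1 transgenic, Region 2 control and Region 2 transgenic, with no overlap between any neighbours. *myog* had means of 4.95 ± 0.10 in transgenic and 4.81 ± 0.07 in control pieces of Region 1, and 3.36 ± 0.20 in transgenic and 3.38 ± 0.05 in control pieces of Region 2 (SD, n = 3 each). The arrays of the genotypes overlapped within each region, and those of the regions did not. For *myf6*, all neighbours in the order overlapped on both probe sets. Groups of different regions did not overlap at 42.3% of all probe sets in transgenic and 43.3% in control pieces. The order is read within a gene, since signals of different probe sets are not on 1 scale.

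Over the 12 arrays the signals of *myod1* and *myog* went together (Pearson r = 0.916) and those of *myf5* and *myog* ran against each other (r = -0.793), with r = -0.538 for *myf5* and *myod1*. *myf6* correlated with *myog* at 0.742, with *myod1* at 0.726 and with *myf5* at -0.671. These values describe 12 arrays that fall into 4 groups of like arrays, and they mainly repeat the differences between the groups.

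The genes whose pattern over the 12 arrays was most like that of each factor were sought among 2770 others (2771 for *myf6*) that were above the median level and varied. For *myf5* these were *grin2da*, which encodes a subunit of NMDA glutamate receptors (r = 0.984), *rbp4l* (r = 0.983) and the metalloprotease gene *adam8a* (r = 0.975). All of them had lower signals in Region 2 transgenic than control pieces: *grin2da* 6.13 ± 0.11 against 8.31 ± 0.05, *rbp4l* 5.14 ± 0.04 against 5.80 ± 0.06 and *adam8a* 6.27 ± 0.07 against 7.09 ± 0.14 (SD, n = 3 each). *grin2da* fell by 2.18 there (limma adjusted p = 0.00195), and it also fell by 0.52 in Region 1 (adjusted p = 0.0451, and 0.133 to 0.161 without any 1 array).

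For *myod1* the nearest were *plod2*, encoding a lysyl hydroxylase of collagen (r = 0.994), *prdm12b*, encoding a PR-domain factor of neural cells (r = 0.993), and *TET2*, encoding an enzyme that oxidises methylated cytosine (r = 0.990). *prdm12b* fell in Region 2 by 1.71 (limma adjusted p = 0.00375), *TET2* by 0.95 (adjusted p = 0.0242) and *plod2* by 0.52 (adjusted p = 0.0420). The calls of *TET2* and *plod2* were lost whichever 1 array was left out, and that of *prdm12b* in none of the 6 cases. For *myog* they were *si:ch73-352p4.8* (r = 0.997), the titin gene *ttn.2* (r = 0.994) and *sox9b*, encoding a SOX factor of cartilage and neural crest (r = 0.994), none of which was called in either region with the transgene. *myf6* had looser neighbours, *twf2* (r = 0.907), *ppfia3* (r = 0.896) and *slc34a1a* (r = 0.895). Since likeness was computed on the same arrays, these falls restate the pattern by which the genes were picked.

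On the chromosome *myf5* and *myf6* lie side by side in the RefSeq annotation, and in Region 2 the one fell while the other had a difference of 0.03. The nearest 2 named genes on each side of the factors came to 12, among them *rps16*, *lin7a*, *ppp1r12a* and *acss3* around *myf5* and *myf6*, *tnnt3a* and *lamb1a* around *myod1*, and *ppfia4* and *lrrn2* around *myog*. With the transgene, limma called none of the 12 in Region 1 (differences -0.33 to 0.35, 1 at an unadjusted p under 0.05) and none in Region 2 (differences -0.40 to 0.23, 1 at an unadjusted p under 0.05). Of all probe sets 12.5% passed that unadjusted p in Region 1 and 10.8% in Region 2, shares against which this and the later counts of this kind can be read.

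The genes around the factors in the muscle pathway were then counted by role. Of 21 measured factors and signals known to act upstream of them, 2 rose and 2 fell in Region 1, and 1 rose and 1 fell in Region 2. Their median difference was 0.11 in Region 1 and 0.08 in Region 2, against -0.01 for all probe sets in each. At an unadjusted p under 0.05, 7 were higher in Region 1, *dmrt2a* itself among them, and 5 lower, against 6.28% and 6.23% of all probe sets. In Region 2, 8 were higher, *dmrt2a* itself among them, and 4 lower, against 4.56% and 6.2%. In Region 1, *tbx16*, a T-box factor of the PSM, was 6.86 ± 0.12 in transgenic and 5.91 ± 0.07 in control pieces (SD, n = 3 each) and rose by 0.95 (limma adjusted p = 0.0162). *msgn1*, encoding mesogenin, a bHLH factor of the PSM, rose by 0.53 (adjusted p = 0.0451). *pax3b* fell by 0.90 (adjusted p = 0.0217) and *pax3a* by 0.53 (adjusted p = 0.0326), a pair of paired-box genes that mark the dermomyotome and neural crest.

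In Region 2, where *myf5* and *myod1* fell, *tbx16* had 10.72 ± 0.01 in transgenic and 10.46 ± 0.03 in control pieces and *msgn1* had 10.04 ± 0.02 in transgenic and 9.94 ± 0.08 in control pieces (SD, n = 3 each), with differences of 0.26 and 0.10 that were not called (limma adjusted p = 0.208 for *tbx16* and 0.712 for *msgn1*). *pax3a* fell by 0.50 (limma adjusted p = 0.0481), and the only riser was *dmrt2a*, the gene of the transgene. The 4 calls of Region 1 and that of *pax3a* in Region 2 were each lost without any 1 array (adjusted p between 0.0558 and 0.200).

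Hedgehog signalling from the notochord keeps the adaxial cells on the slow muscle path. Of its 12 measured genes none was called in Region 1 (4 at an unadjusted p under 0.05). In Region 2, 2 were higher and 2 lower at that unadjusted p, and the median difference was 0.08. There limma called only *gli2a*, encoding a transcription factor that carries the signal, which fell by 0.67 (adjusted p = 0.0173). Its level was 8.27 ± 0.03 in transgenic and 8.95 ± 0.02 in control pieces (SD, n = 3 each), and without any 1 array its adjusted p was between 0.0836 and 0.106. Among the 9 E-proteins and Mef2 factors, the partners of the myogenic factors on DNA, limma called none in Region 1 (2 at an unadjusted p under 0.05) and none in Region 2 (2 likewise).

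The 16 genes known to oppose the myogenic factors included 1 that rose in Region 1, *twist3*, a bHLH factor of the Twist family, by 1.22 (limma adjusted p = 0.0307, and 0.0721 to 0.137 without any 1 array). In Region 2 limma called none of the 16 (at an unadjusted p under 0.05, 1 was higher and 4 lower), and their median difference was 0.00105. The difference of *twist3* there lay between 0.24 and 0.42 without 1 array and was not called. Whether these genes had a part in the fall of *myf5* and *myod1* was not tested.

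Genes that the factors are known to act on were counted in 2 lists. Of 24 early effectors, such as adhesion, fusion and synapse genes of muscle precursors, 1 fell in each region and none rose. In Region 2 it was *rbfox1l*, encoding a splicing regulator of muscle, with 7.75 ± 0.01 in transgenic and 8.67 ± 0.05 in control pieces (SD, n = 3 each), a fall of 0.92 (limma adjusted p = 0.00739). Its difference in Region 1 was -0.20 (adjusted p = 0.275), and the 2 effects differed by 0.73 (adjusted p = 0.00491, and 0.0156 to 0.0249 without any 1 of the 12 arrays). The call within Region 2 was kept in 1 of 6 fits without an array (adjusted p between 0.0450 and 0.0603). In Region 1 it was *vgll2a*, a co-factor of TEAD proteins in muscle, which fell by 0.67 (limma adjusted p = 0.0248, and 0.0923 to 0.119 without any 1 array).

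The median difference of the 24 effectors was 0.05 in Region 1 and -0.09 in Region 2. In Region 2, 19 of 24 lay below 0. At an unadjusted p under 0.05, 7 were lower there, as were 6.2% of all probe sets, and 0 were higher. In Region 1, 13 of 24 lay above 0. At that p 7 were higher and 3 lower there, against 6.28% and 6.23% of all probe sets. The 36 contractile genes were mostly myosins, actins, troponins and other parts of the sarcomere, with creatine kinase and calcium-handling genes and *prox1a*. Of these 36, limma called none in Region 1 (before adjustment 7 passed 0.05 upwards and 3 downwards). It called none in Region 2 either (1 upwards and 3 downwards), and the medians were 0.05 and -0.03. The slow myosin heavy chain gene *smyhc1* for instance had differences of 0.37 in Region 1 (limma adjusted p = 0.268) and 0.03 in Region 2 (adjusted p = 0.976). The median signal of the 36 on an array was 3.55 to 3.84 in Region 1 and 3.35 to 3.53 in Region 2. These lay near the medians of all probe sets given above, and that of the 24 effectors in Region 2 was 3.71 to 3.96. How many of these genes stood high enough to show a fall was not measured.

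**Figure D3:**
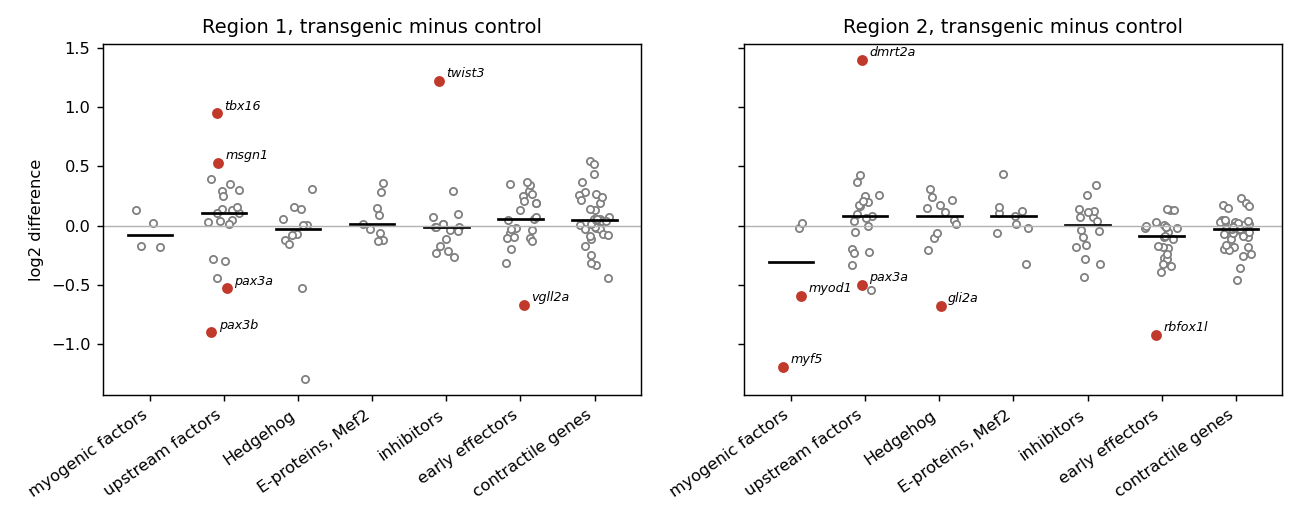
Log2 difference, transgenic minus control (y axis), of each measured gene of the myogenic factors and of the 6 pathway lists (x axis) in Region 1 (left) and Region 2 (right). Red points passed an adjusted p under 0.05 and are named, open points did not, and bars are medians. In Region 2 the median bars of the 6 lists lie within 0.1 of 0.

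Between regions, many of these genes sided with *myod1* and *myog*. In control pieces 20 of 24 early effectors and 16 of 36 contractile genes were higher in Region 1, and 2 and 4 were lower, against 19% of all probe sets higher and 8.68% lower. In transgenic pieces 21 effectors and 17 contractile genes were higher and 1 and 3 lower, against 18.8% of all probe sets higher and 7.77% lower. These counts and shares are those of the deposited values, and list counts under other scalings are not given. Of all probe sets in control pieces, 14306 were higher and 6526 lower as deposited. With median centring 6990 were higher and 18718 lower. The largest differences in control pieces were, among the effectors, those of *cdh15*, encoding M-cadherin, at 2.22 and *chrng*, an acetylcholine receptor subunit gene, at 1.90, and, among the contractile genes, those of *smyhc1* at 2.08 and the troponin C gene *tnnc2.2* at 1.61. The 21 upstream factors were split, with 9 higher and 9 lower in Region 1 in control pieces and a median difference of 0.05. The PSM factors *msgn1* at -4.68 and *tbx16* at -4.54 had the sign of *myf5*, and *pax3b* at 3.36 had that of *myod1* and *myog*.

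Some markers of the tissues in the pieces also changed with the transgene. In Region 2, 1 of 11 somite markers fell (*pax3a*) and none rose, and their summed signal was 10.92 to 11.00 in transgenic and 11.02 to 11.06 in control pieces on the log2 scale. Of 14 PSM and tailbud markers 1 fell there (*eve1*, by 0.79) and none rose, and their summed signal was 13.36 to 13.40 in transgenic and 13.26 to 13.30 in control pieces. In Region 1, 3 of the PSM markers rose (*tbx16*, *msgn1* and *her7*), with summed signals of 11.79 to 11.83 in transgenic and 11.53 to 11.63 in control pieces. *her7* rose by 0.58 (limma adjusted p = 0.038). *pax3a*, *tbx16* and *msgn1* are the upstream genes given above, whose calls were lost without any 1 array.

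A few markers of other lineages were called in each region, most of them as falls. Of 9 endothelial and blood markers 2 fell in Region 2. *etsrp* (also called *etv2*) had a difference of -2.99 and *tal1* one of -1.30, and the summed signal of the 9 was 9.29 to 9.36 in transgenic and 9.92 to 9.99 in control pieces. Of 5 intermediate mesoderm markers *osr1* fell by 2.31, with summed signals of 8.98 to 9.04 in transgenic and 9.31 to 9.37 in control pieces. Of 10 neural plate markers 1 rose (*sox3*, 0.75) and 2 fell (*her3*, -1.04, and *pax6a*, -0.99). Their summed signal was 9.81 to 9.91 in transgenic and 10.22 to 10.25 in control pieces. None of 7 notochord, 9 epidermal or 10 heat-shock genes was called in Region 2 by limma (2, 2 and 0 at an unadjusted p under 0.05). The summed signal of the notochord genes was 10.6 to 10.69 in transgenic and 10.5 to 10.55 in control pieces. That of the epidermal genes was 13.18 to 13.24 in transgenic and 13.28 to 13.33 in control pieces. The heat-shock genes summed to 13.94 to 13.96 in transgenic and 13.98 to 14.01 in control pieces. The *hsp70* genes of that list had no probe set with 1 symbol and were not among the 10. In Region 1, where no myogenic factor was called, *her3* (-3.35), *zic2a* (-0.96) and *pax6a* (-0.83) of the 10 neural plate markers fell. So did *etsrp* (-2.08) and *tal1* (-0.62) of the 9 endothelial and blood markers and *osr1* (-1.15) of the 5 intermediate mesoderm markers. None of these lists had a called rise there. The limma adjusted p of these calls ran up to 0.0495, that of *tal1* in Region 1, and fits without 1 array are not given for them. The part of these tissues in the fall of *myf5* and *myod1* was not tested.

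The calls of the early factors in Region 2 depended unequally on how the arrays were tested. *myf5* was called in 8 of 9 other fits and *myod1* in 6 of 9, while the difference stayed between -1.19 and -1.16 for *myf5* and between -0.59 and -0.57 for *myod1*. The fit with the replicate number as a block called neither of them. Whether equal numbers pair the arrays is not stated, and in Region 2 transgenic and control arrays of 1 number hardly deviated together (correlations -0.055 to 0.00778).

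**Figure D4:**
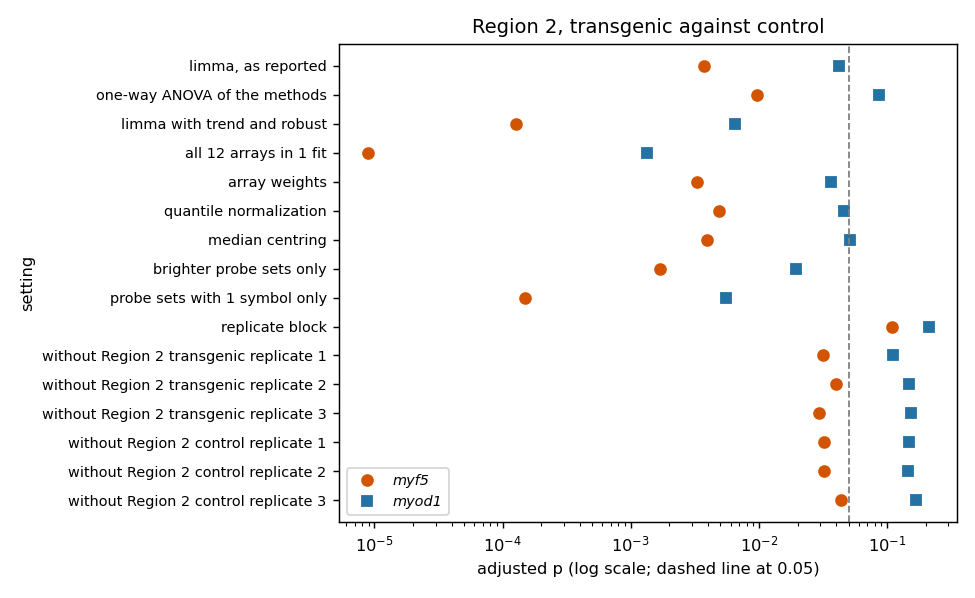
Adjusted p (x axis, log scale) of *myf5* (circles) and *myod1* (squares) for transgenic against control pieces of Region 2, as reported and under each other setting (y axis). The dashed line marks 0.05; *myod1* lies to its right in every fit without 1 array, and *myf5* only with the replicate block.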

How the data were processed

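The authors hybridised RNA of pooled pieces to Affymetrix Zebrafish Gene 1.1 ST arrays and deposited 1 log2 signal per probe set and array, made with Affymetrix Expression Console. The summarization, the normalization, and whether the regions were normalized together are not given in the sources used here. Background and array quality were not assessed, as scanner files were not used here, and 3 arrays a group limit the precision. Gene names came from the platform annotation, brought up to date by gene identifier, and the brightest probe set represented a gene with several.

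Transgenic and control arrays of each region were fitted apart, and the regional contrasts with all 12 arrays and 4 group means, with limma 3.58.1 (lmFit, eBayes) in R 4.3.3. P-values are two-sided and adjusted over 75212 probe sets, and a call means an adjusted p under 0.05. The fit was tested on simulated data. Python 3.11.15 made the figures and the exact permutation tests.

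The 4 genes and the gene lists (6 of the pathway, 8 of markers, 182 of 199 genes measured) were chosen with earlier results of these data known. Named besides the 4 genes and *dmrt2a* were, per pathway list, up to 4 called genes a region and the 2 largest regional differences, the 3 most similar genes per factor (SD at least 0.3, above the median signal) and the 2 nearest named genes on each side. Not all of them are named. Marker genes are named where called, outside this rule. Arrays with the same replicate number hardly deviated together (correlations -0.06 to 0.08) and were not paired. Between the regions of 1 genotype these correlations were all above 0 (0.017 to 0.0787). Whether both regions of a replicate came from the same embryos is not stated, and the regional contrasts treat the arrays as independent. Alternatives were the methods' one-way ANOVA, a trend and robust spread in limma, 1 fit of all arrays, array weights, quantile normalization, median centring, brighter probe sets, probe sets with 1 symbol, the mean of a gene's probe sets, the replicate block and leaving out each array.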

Additional observations from a re-analysis of the deposited data

Results flagged for a closer look

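The effect of the transgene was compared between the regions by limma's test of Region 2 minus Region 1 over all 12 arrays. It differed for 9 of the named genes, leaving aside those named only as markers. The effect was lower in Region 2 for *myf5* (-1.21, adjusted p = 4.4e-04), *grin2da* (-1.66), *prdm12b* (-1.46), *rbfox1l* (-0.73, adjusted p = 0.00491), *tbx16* (-0.69), *rbp4l* (-0.68) and *gli2a* (-0.60). It was higher in Region 2 for *dmrt2a* (1.04, adjusted p = 8.3e-04) and *vgll2a* (0.80). Among the markers, the effect was also higher in Region 2 for *her3* (2.31, limma adjusted p = 4.8e-05) and *zic2a* (0.91). For *osr1* (-1.16), *etsrp* (-0.915) and *lmo2* (-0.61) it was lower there. The genes *grin2da*, *prdm12b* and *rbp4l* had been picked for their likeness to *myf5* or *myod1* on these arrays. On the same arrays, *tbx16* and *vgll2a* had been named for a call in Region 1, and *gli2a* and *rbfox1l* for a call in Region 2. Picking by a call within a region favours a called difference between regions, so the 9 are no count from unselected genes. This test called 144 of all probe sets, and 0.128% of all were called lower in Region 2. Without 1 of the 12 arrays *myf5*, *dmrt2a*, *rbfox1l*, *grin2da* and *prdm12b* kept the call in all 12 fits, *tbx16* in 2, and *gli2a*, *vgll2a* and *rbp4l* in 1 each. Groups of 3 arrays were too small for a test of single arrays far from the others.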

How the results depend on the processing

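In Region 2 limma called 2 of the 4 factors, against 1 with the one-way ANOVA of the methods, 1 with median centring, 1 without any 1 array and 0 with the replicate block. The factor lost was *myod1*, at -0.5938 with the ANOVA (adjusted p = 0.0868), -0.59 with median centring (adjusted p = 0.0512), -0.5938 with the block (adjusted p = 0.213) and between -0.6381 and -0.54 without 1 array. *myf5* in Region 2 was lost with the replicate block alone (-1.192, adjusted p = 0.110), a fit that called 0 probe sets in either region, where the reported fits called 381 in Region 1 and 352 in Region 2. The difference of effects gave 2 called factors in place of 1 with trend and robust spread (*myod1*, adjusted p = 0.0420).

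Signs near 0 turned without 1 array: *myf5* in Region 1 lay between -0.02648 and 0.05061 (-0.01805 without transgenic replicate 2), *myog* in Region 2 between -0.1111 and 0.08731 (0.002422 without control replicate 1), and *myf6* in Region 2 between -0.08679 and 0.1639, with -0.01002 for the mean of its probe sets. The second *myf6* probe set lay between -0.02096 and 0.1224 in Region 1, between -0.1244 and 0.009283 in Region 2, and between -0.111 and 0.04053 for Region 1 minus Region 2 in transgenic pieces. In control pieces the call of *myf6* between regions was lost without Region 1 replicate 1 or 3 or Region 2 replicate 1 or 2, and with quantile normalization (0.42, adjusted p = 0.0722) or median centring (0.39, adjusted p = 0.0713).

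Counts over all probe sets ranged more: 30 to 46 were called in Region 1 and 16 to 78 in Region 2 without 1 array, 0 with the block to 1181 in Region 1 and 1300 in Region 2 with all arrays in 1 fit, and 54 to 423 for the difference of effects, for which 144 were reported (41 to 71 without 1 array). Without 1 array fewer samples entered; the other causes were not tested. Of the probe sets called between regions in control pieces, 68.7% were higher in Region 1 as deposited, 49.7% with quantile normalization and 27.2% with median centring, and in transgenic pieces 70.7%, 50.02% and 30.8%. Median centring moved the median of all probe sets by -0.18 and -0.17.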
